A study of Homo sapiens with 4 samples.

Results

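The genes described here are coding genes whose RNA was less abundant in the pull out of biotin-tagged miR-28-5p than in the control pull out. FPKM (fragments per kilobase of transcript, scaled for library size) of the coding RefSeq transcripts with an accepted estimate in all 4 libraries were summed per gene and scaled between libraries by the median of ratios. A gene was kept when its mean over the 4 libraries was at least 1 and its higher tagged value was at least 2-fold below its lower control value. Histones, ribosomal and mitochondrial ribosomal proteins, NDUF subunits, S100 proteins, proteasome subunits, zinc finger genes of the ZNF series, RNF, RAB and SLC genes were left out. This gave 62 genes of the 8386 that reached the mean of 1 outside these families, or 0.739%. With the families included the same margin held for 79 of 9273 genes (0.852%). The opposite margin, both tagged values at least 2-fold above both control values, held for 188 of the 8386 genes (2.24%). With any gap between the arms in place of 2-fold the order turned, with 1097 genes lower and 991 higher. The members were chosen by their scaled FPKM in both arms, so the values that chose them are a description and carry no test.

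The libraries came from DU-145, an epithelial line grown from metastatic human prostate carcinoma, so that every sample is of 1 cell line. The cells were transfected with Lipofectamine and 60 nM of miR-28-5p duplex, untagged in the 2 miR-28CT libraries and tagged in the 2 miR-28BIO libraries. The tagged duplexes were a mix of miR-28-5p 8tU and 18tU, which carry a thiouridine at nucleotide 8 or 18 and a 3′ biotin. All cells were irradiated at 365 nm with 2 J/cm2, and 15 µg of their total RNA was held on streptavidin beads for 4 h before stranded total RNA sequencing, so both arms contained additional miR-28-5p and passed over the same beads.

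A microRNA guides Argonaute proteins to messenger RNAs, mainly by pairing of its seed, the nucleotides from position 2 to 8, with the 3′UTR. In a pull out, thiouridine crosslinks the tagged microRNA to RNA beside it under ultraviolet light, the beads hold the biotin, and the untagged arm records RNA that sticks to the beads without a tag. Sequencing shares of the recovered RNA are compared, so a gene can be lower in the tagged arm when other RNA takes up more of the library. Less RNA in the cells, less RNA retained and a larger share of other RNA cannot be told apart in these libraries.

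The number of mapped reads behind the FPKM, estimated from coverage, was about 17900000 and 13000000 in miR-28CT replicates 1 and 2 and 17300000 and 14700000 in miR-28BIO replicates 1 and 2. All 5 epithelial markers examined were above 0 in every library, KLK2 and KLK3 of the prostate luminal markers were at 0, and the 7 markers of other cell types were below 1. Across the 9273 genes, log2 values correlated more closely between libraries of the same replicate number (Pearson's r across genes 0.854 and 0.850) than between libraries of the same arm (0.643 and 0.646). Genes are not independent replicates, and these values describe only how the libraries resemble each other. By limma with Benjamini-Hochberg adjustment, 0 of the 9273 genes were lower in the tagged arm (0.00%) and 0 higher, with 68 lower (0.733%) and 223 higher at an unadjusted p under 0.05 and a smallest adjusted p of 0.424. These p-values measure the spread between 2 libraries per arm, which the study calls biological replicates. The fit had no term for the replicate number, and the calls of a fit with such a term differed and are given in the last section.

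The 62 genes fell into 4 classes by how they were measured. The first class of 32 genes was above 0 in all 4 libraries, out of 8143 such genes (0.393%), and the opposite margin held for 172 of the 8143 (2.11%). With FPKM as deposited 16 of these 32 genes met the margin, and with upper quartile scaling 21. In 7 genes 1 tagged library was listed at 0, in 13 genes both tagged libraries were at 0, and in 10 genes both tagged libraries and 1 control library were at 0. The last class met the rule only because 0 is not above 0. Of all 9273 genes 265 had at least 1 library at 0, against 30 of the 62 members. Values at 0 are listed here as the authors' files give them, and most of what follows concerns the 32 genes with a value everywhere.

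**Figure D1:**
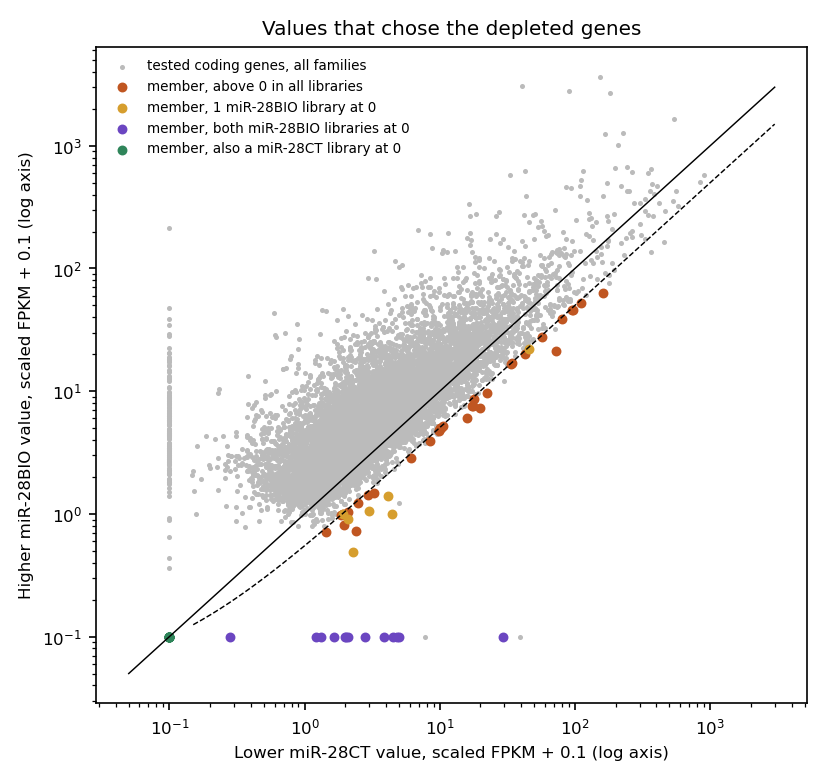
Each point is 1 of 9273 coding genes past the filter on the mean; the horizontal axis is the lower of its 2 control values and the vertical axis the higher of its 2 tagged values, both as scaled FPKM + 0.1 on log axes. The solid line marks equal values and the dashed curve the 2-fold margin; coloured points are the 62 depleted genes, grey points below the curve belong to the families left out, and the 10 genes with a control library at 0 lie on 1 point at the lower left.

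In the 32 genes above 0 everywhere, control levels ran from 1.35 to 161 in replicate 1 (median 13.2) and from 1.83 to 286 in replicate 2 (median 16.1). Tagged levels ran from 0.611 to 62.7 (median 4.76) and from 0.399 to 52.4 (median 5.55). Their difference in log2(scaled FPKM + 0.1), tagged minus control, had a median of -1.44 and lay between -2.03 and -1.05, while the median over all 9273 genes was -0.10. By control level, 8 of the 32 genes were at 50 or more, 6 between 20 and 50, 9 between 5 and 20 and 9 below 5, with median differences of -1.52, -1.68, -1.20 and -1.53 from the highest band to the lowest. The differences had no order by level.

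Values of a gene are given below in the order miR-28CT replicate 1, miR-28CT replicate 2, miR-28BIO replicate 1 and miR-28BIO replicate 2, as scaled FPKM. Genes were taken by level, by distance between the arms, by closeness to the margin and from gene lists. Those from lists of partner genes, and members placed beside them by role, were chosen after their values were seen.

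Among the 32 genes are light chains of nonmuscle myosin II, the motor that contracts actin filaments. MYL6, the essential light chain, had the highest control level and was at 161, 286, 62.7 and 45.0, a mean of 224 ± 88.9 in the control and 53.9 ± 12.5 in the tagged arm (SD, n = 2), and differed by -2.01 on the log2 scale. MYL12B, a regulatory light chain, was at 112, 111, 42.5 and 52.4 and differed by -1.23. PPP1R14A, an inhibitor of the phosphatase that acts on the regulatory chain, was far lower at 2.40, 2.30, 0.631 and 0.619 and differed by -1.76. The 2 control sums of MYL12B and PPP1R14A were close to each other, but in each gene they lay on different transcripts in the 2 libraries. The control values of MYL6 were further apart than its tagged values. No tagged value reached a control value in any of the 3 genes, as the rule requires. Of 13 measured genes in a list of these light chains, their heavy chains, kinase and phosphatase, 3 were members and the list's median difference was -0.51. Its MYL12A, the other widely expressed regulatory chain, was at 135, 63.1, 66.8 and 34.2 and was no member, since its tagged replicate 1 lay above its control replicate 2.

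Other abundant members act in nucleotide signalling, redox defence and RNA processing. HINT1, a histidine triad enzyme that hydrolyses purine phosphoramidates, was at 96.2, 172, 21.5 and 45.9 and had the largest difference of the 32 genes, -2.03. In both arms replicate 2 of HINT1 was about as much above replicate 1, by 0.84 and 1.09 on the log2 scale. GPX4, the selenoenzyme that reduces lipid hydroperoxides in membranes, was at 95.3, 117, 45.3 and 35.2 and differed by -1.40. SNRPD2, a core Sm protein of the spliceosomal snRNPs, was at 72.0, 84.5, 21.2 and 21.3 and differed by -1.87. The tagged values of SNRPD2 were almost equal, and their distance from the lower control value, 3.38-fold after adding 0.1 to each, was the widest among the 32 genes. Without the added 0.1 PPP1R14A was wider, with a ratio of the higher tagged to the lower control value of 0.274 against 0.295. SRSF3, an SR protein that regulates splicing, was at 21.6, 17.6, 6.73 and 7.50. DDX39A, an RNA helicase of messenger RNA export, was at 17.3, 32.9, 5.88 and 7.41, and RBM45, an RNA-binding protein, was at 1.90, 1.83, 0.792 and 0.905. The control and tagged values of these 4 RNA-processing genes were apart, as the rule requires, but for SRSF3 and DDX39A only on coding records. With noncoding records added SRSF3 was at 43.0, 22.5, 26.7 and 14.7 and DDX39A at 17.3, 32.9, 5.88 and 18.2, and a tagged value of each passed a control value.

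EDF1, a coactivator that also binds collided ribosomes, was at 79.4, 94.3, 38.3 and 23.1 and differed by -1.54. ELOB, the adaptor subunit Elongin B of VHL and SOCS-box ubiquitin ligases, was at 57.0, 97.9, 27.7 and 24.6 and differed by -1.51. In both genes the tagged replicate 2 was the lowest library and the control replicate 2 the highest, and the log2 difference was -1.05 and -1.04 within replicate 1 but -2.02 and -1.99 within replicate 2. KBTBD7, a substrate adaptor of CUL3 ligases, was at 1.77, 2.06, 0.816 and 0.879, and TRIM41, a RING-type ubiquitin ligase, was at 2.82, 3.56, 0.801 and 1.33. Both genes were low in every library, with their arms apart. In a list of 7 measured Elongin and VHL ligase genes ELOB was the only member, and the list's median difference was -0.16.

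A further group acts in mitochondria and in the metabolism of folate, coenzyme Q and lipids. COA4, an assembly factor of cytochrome c oxidase, was at 34.2, 41.0, 14.9 and 16.9 and differed by -1.24. MTHFD2, the mitochondrial folate dehydrogenase and cyclohydrolase, was at 33.5, 34.3, 14.9 and 16.7, and GGH, which removes glutamates from stored folates, was at 19.6, 21.2, 4.11 and 7.23. GGH differed by -1.88 and MTHFD2 by -1.10, with control replicates nearly equal in both. COQ5 and COQ3 are methyltransferases of coenzyme Q synthesis. COQ5 was at 10.0, 10.5, 3.71 and 4.87, and COQ3 was at 2.32, 1.86, 0.718 and 0.470. The 10 measured genes of that synthesis differed in direction. COQ3 and COQ5 were members, and COQ7, the hydroxylase of the same pathway, was at 1.45, 1.36, 5.27 and 9.24, past the opposite margin. ACAA1, the peroxisomal thiolase, was at 2.39, 6.75, 0.922 and 1.12, and PHYH, which starts the breakdown of phytanic acid in peroxisomes, was at 2.00, 2.84, 0.633 and 0.928. In ACAA1 the control libraries differed from each other by 1.46 on the log2 scale, the widest gap between control libraries among the 32 genes. A further 4 of the 32 genes were PHPT1, a protein histidine phosphatase, at 15.8, 26.6, 4.81 and 5.97, C19orf53 at 42.3, 64.6, 18.7 and 20.1, C15orf40 at 3.15, 3.41, 1.24 and 1.39, and DYNLT2B, a light chain of dynein-2, at 1.35, 3.16, 0.611 and 0.399. Among these DYNLT2B had the widest spread between numbers, -1.02 within replicate 1 and -2.71 within replicate 2. The gap between the arms in C15orf40 lay only on records that were each above 0 in a single control library.

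Other members act in replication, mitosis and the nuclear envelope. PCLAF, which binds the PCNA clamp at replication forks, was at 23.6, 22.2, 6.57 and 9.61 and differed by -1.51. RPA2, a subunit of the single-strand binding protein RPA, was at 9.73, 14.6, 4.72 and 4.71 and differed by -1.32. MAD2L1, the mitotic checkpoint protein that restrains CDC20, was at 9.93, 11.7, 3.05 and 4.93 and differed by -1.45. In PCLAF and MAD2L1 the tagged replicates were further apart than the control replicates on the log2 scale, and in RPA2 they were nearly equal. The other RPA subunits and PCNA were measured too: of the 10 genes of RPA, the clamp and its loader, 8 were lower within both replicate numbers, against 42.5% of all 9273 genes, and the list's median was -0.70, with 2 members. The list was drawn up after the members were known. Of 9 measured mitotic checkpoint genes 4 were lower within both numbers, with a median of -0.01. NUP54, of the central nuclear pore channel, was at 6.75, 6.03, 2.71 and 2.74, and ID2, an inhibitor of basic helix-loop-helix factors, was at 8.40, 8.84, 3.86 and 3.58. EMC3, of the complex that inserts membrane proteins in the endoplasmic reticulum, was at 10.6, 9.71, 4.64 and 4.47, BZW1, a regulator of translation initiation, was at 10.5, 10.8, 4.98 and 5.13, and SERPINB6, an intracellular protease inhibitor, was at 17.9, 18.1, 8.54 and 8.49. In these 5 genes the replicates of each arm lay close together on coding records. With noncoding records added NUP54 was at 6.75, 6.03, 7.35 and 3.88, its difference was -0.25 in place of -1.20, and it no longer met the margin.

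**Figure D2:**
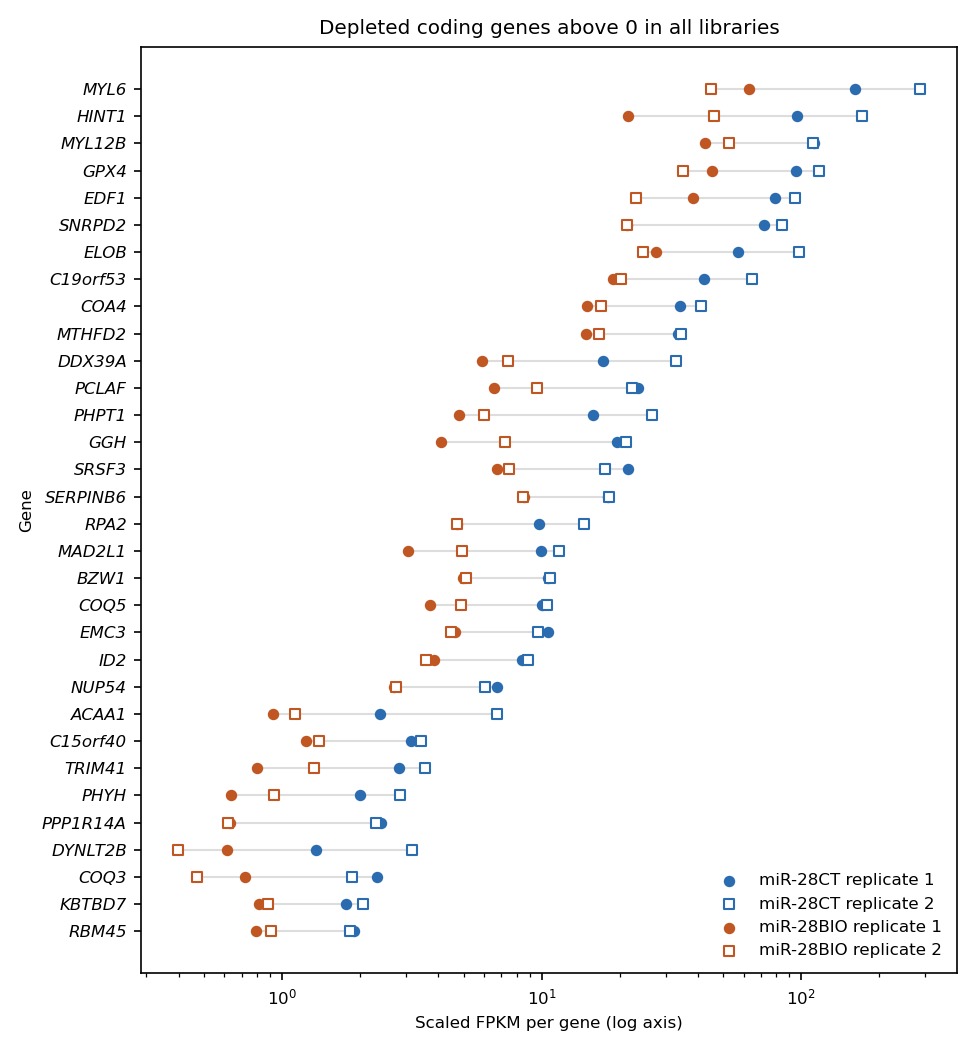
Scaled FPKM (log axis) of the 32 depleted genes above 0 in all libraries, ordered by mean control level; blue marks are miR-28CT, orange marks miR-28BIO, filled circles replicate 1 and open squares replicate 2, and a grey line joins the lowest and highest library. In every row both orange marks lie to the left of both blue marks, as the rule requires, from MYL6 with 45.0 to 286 at the top to RBM45 with 0.792 to 1.90 at the bottom.

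Because same-numbered libraries resembled each other, the differences were also taken within each number. Over the 32 genes the median was -1.29 within replicate 1, with a range of -2.22 to -1.02, and -1.44 within replicate 2, with a range of -2.71 to -0.94. Over all 9273 genes the medians were -0.08 and -0.09. Control replicate 2 was above control replicate 1 in 24 of the 32 genes, and tagged replicate 2 above tagged replicate 1 in 21 of them, while 49.7% and 50.5% of all genes did so. The margin across both numbers asks that a gene differ little between them. Within each number taken alone 271 genes (3.23%) were at least 2-fold lower and 339 at least 2-fold higher. Among the 271 were 52 of the 62 members. The rule fixes this for every member with both control libraries above 0, so the values of the members within each number are a description.

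**Figure D3:**
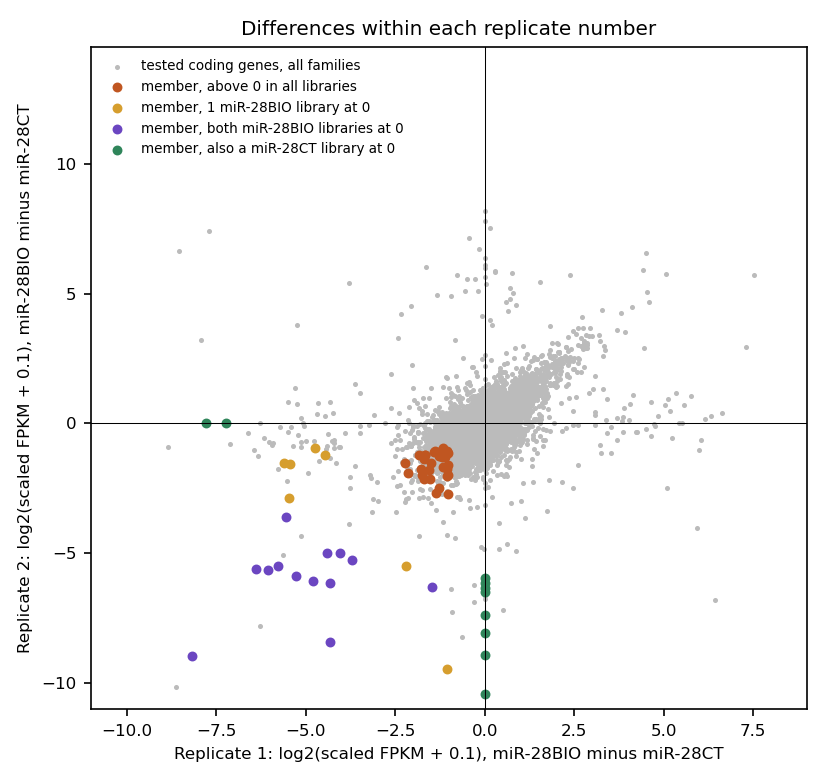
Difference in log2(scaled FPKM + 0.1), miR-28BIO minus miR-28CT, within replicate 1 (horizontal) and within replicate 2 (vertical), for 9273 coding genes (grey) and the 62 depleted genes (coloured by class). The 32 genes above 0 in all libraries lie between -2.71 and -0.94 on both axes, while the genes with a control library at 0 lie on an axis line because 1 number compares 0 with 0.

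The margin has no natural break. Just inside it, by the ratio of the higher tagged to the lower control value, were MTHFD2 at 0.498, MAD2L1 and KBTBD7 at 0.497 and RBM45 at 0.495. Just outside were SUCLA2, a subunit of succinyl-CoA ligase, at 0.501, the nucleoside diphosphate kinase NME1 at 0.503, the HSP70 import factor HIKESHI at 0.505 and the deubiquitinase OTUD5 at 0.508. NME1, at 193, 222, 97.0 and 73.2, was more abundant than all members but MYL6 by mean control level. It differed by -1.29 on the log2 scale, inside the range of the 32 genes.

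For 19 of the 32 genes 1 coding record held the whole value. In the other 13 genes the FPKM was divided among records, and the leading record was the same in all 4 libraries for 6. MYL12B shows the pattern: in replicate 1 of both arms its value lay mainly on a record of 1006 bases (112 in the control, 35.3 in the tagged library), and in replicate 2 of both arms entirely on a record of 947 bases (111 and 52.4). The gene sums of MYL12B were alike where its single records were not. In 7 of the 13 genes a single record also kept the 2-fold margin. C15orf40 was not among them. Its record of 1700 bases was at 1.28, 1.32, 1.24 and 1.39, where the arms overlapped. The rest of its control value lay on records listed at 0 in both tagged libraries. For 11 of the 32 genes (34.4%) GENCODE names processed or other pseudogenes after the gene, among them MYL6 with 5, SRSF3 with 5 and MTHFD2 with 7, against 16.8% of all measured genes outside the families. Reads shared with such copies could be placed on either, so the levels of these 11 genes are less certain.

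Lists of related genes placed the members beside genes of the same kind. Of 28 measured genes of the actin cytoskeleton 2 were members (MYL6 and MYL12B), and 22 were lower within both replicate numbers, with a median difference of -0.54. Of 18 Sm and LSm proteins only SNRPD2 was a member, 15 were lower within both numbers and the median was -0.70. Of 28 redox enzymes GPX4 was the only member, 22 were lower within both numbers and the median was -0.59. Over all 9273 genes 42.5% were lower within both numbers. The largest median of these lists belonged to the subunits of cytochrome bc1, cytochrome c oxidase and ATP synthase, where 31 of 33 were lower within both numbers with a median of -1.02, yet 0 of the 33 were members. Many of them differed widely between replicate numbers, as COX7C, a subunit of cytochrome c oxidase, at 133, 710, 56.9 and 220. Others missed the margin with replicates close together, as ATP5F1C, a subunit of ATP synthase, at 43.5, 45.0, 22.6 and 27.8. In 3 other lists with a member the share was below that of all genes. Of 7 measured genes of the central nuclear pore channel, NUP54 among them, 1 was lower within both numbers, with a median of -0.03. Of 11 homeobox genes 2 were, with a median of 0.01 and HOXA10 as the member, and of 11 ID, HES and SMAD factors 4 were, with a median of -0.08 and ID2 as the member. These counts describe the lists and are not tests of them.

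The genes with a library listed at 0 include well expressed ones. PTRHD1, a peptidyl-tRNA hydrolase domain protein, was at 29.2 and 50.0 in the control libraries and listed at 0 in both tagged libraries. HAT1, the cytoplasmic histone acetyltransferase, was at 8.27 and 4.72, MED31, a Mediator subunit, at 3.78 and 5.73, and ACD, the shelterin protein TPP1, at 2.70 and 6.59, all with both tagged libraries listed at 0. HAT1, MED31 and ACD serve chromatin, transcription and telomeres, while PTRHD1 is named only by its domain. No theme was tested among these 4 genes. NME7 was at 6.52 and 4.88, SCNM1, a minor spliceosome factor, at 5.41 and 4.37, TXNL4B at 2.01 and 3.05, THAP3 at 1.91 and 7.05, and the homeobox gene HOXA10 at 1.21 and 3.68. TNFRSF6B, the decoy receptor for FAS ligand, was at 1.89 and 34.3, and its control libraries lay 4.11 apart on the log2 scale. The remaining genes of this class, TMEM238, TPD52 and DNAAF5, had control values between 0.180 and 7.85. In the class with 1 tagged library at 0, RNASEK was at 45.3, 70.9, 21.9 and 0. A further 5 genes of that class (SMIM19, ZHX1, ARRB2, BBIP1 and BCL7B) had control values from 1.84 to 4.80 and a measured tagged value from 0.390 to 1.30.

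In the 10 genes with a control library at 0 a single library carried the whole value on coding records. DYNC2I2, an intermediate chain of dynein-2, was at 136 in control replicate 2 and listed at 0 in the other 3 libraries, and HSPE1, the mitochondrial chaperonin HSP10, was at 27.0 there and at 0 elsewhere. MPDU1 and TM7SF2 were at 48.5 and 16.5 in the same library, and TMX2 and ANAPC15 were at 21.9 and 14.9 in control replicate 1 alone. HSPE1 lies beside HSPD1, its HSP60 partner, which was at 46.5, 27.1, 31.9 and 21.5. A 0 in these files is therefore given as a listed value and not as absence of the RNA. Of the 10 genes 8 had their value in control replicate 2, and the remaining 4 of these (DDT, GNB1L, SNAPC2 and RETREG3) were at 8.87, 7.94, 6.90 and 6.03.

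Noncoding RefSeq records (NR_) of the same genes bear on these zeros. Of the 30 genes with a library at 0, 16 had such a record, and in 11 of them it was above 0 in both tagged libraries. HAT1 was at 12.4, 9.11, 10.6 and 5.67 on its noncoding record while its coding record was at 0 in the tagged arm. DNAAF5, an assembly factor of ciliary dynein, was at 3.25, 9.76, 5.57 and 12.6 on its noncoding record, and its coding record was at 1.56, 3.09, 0 and 0. MPDU1 was at 19.5, 0, 12.8 and 18.6 on its noncoding record, the reverse of its coding record. TMX2 went the other way, with its noncoding record at 0, 22.3, 0 and 0. Its coding and noncoding records summed to 21.9, 22.3, 0 and 0. With both kinds of record summed, 18 of these 30 genes still met the margin, against 27 of the 32 genes above 0 everywhere and 45 of the 62 in all. Only 16 of the 30, 9 of the 32 and 25 of the 62 had a noncoding record to add, and the others kept the margin by default. Some of these records, as those of NME7 and PCLAF, were at 0 in every library. The 5 of the 32 that lost the margin, all among the 9 with a noncoding record, were SRSF3, DDX39A, NUP54, ACAA1 and TRIM41. An overlapping annotated gene was found at 19 of the 30 genes with a library at 0, against 3 of the 32, and the share over all genes was not counted. SCNM1 shares exons with the readthrough gene TNFAIP8L2-SCNM1, which was at 3.31, 0, 5.70 and 5.48, and HOXA10 lies opposite HOXA10-AS, which was at 0, 0, 8.78 and 2.91. Whether strand was used in the quantification is not given in the sources used here, and the part of record assignment in these zeros was not tested.

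**Figure D4:**
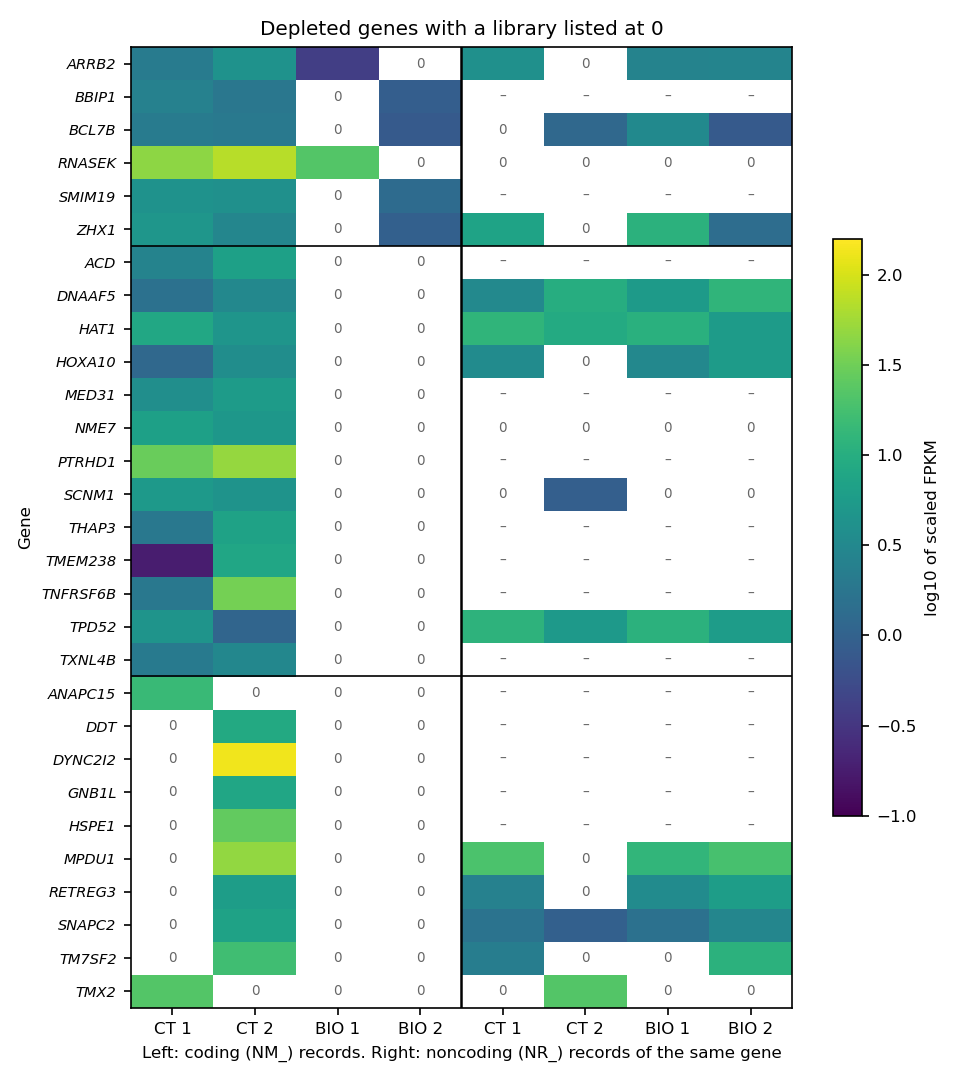
Shown are 29 of the 30 depleted genes with a library at 0, in 3 blocks (1 tagged library at 0, both at 0, a control library also at 0); the left 4 columns are coding records and the right 4 noncoding records of the same gene, coloured by log10 of scaled FPKM, with 0 printed where a value is 0 and a dash where the files hold no such record. HAT1, DNAAF5, TPD52 and MPDU1 are at 0 on the left in both tagged libraries and above 0 on the right.

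Short transcripts were common among the depleted genes, a property the rule did not use. The leading record of the 32 genes had a median length of 1454.5 bases, that of the 30 genes with a library at 0 of 1637, that of all measured genes outside the families of 3016.5 and that of the 188 genes past the opposite margin of 4077. Under 1000 bases were 11 of the 32 genes (34.4%), among them MYL6, HINT1, GPX4, EDF1 and SNRPD2, against 5.82% of all measured genes and 2.13% of the 188. When the 8386 genes were divided into quartiles of length, the shortest (310 to 1911 bases) held 46 of the 62 members and 26 of the 32, and the longest held 2 and 0. The median log2 difference of all genes went from -0.53 in the shortest quartile through -0.20 and -0.02 to 0.16 in the longest. Across the 8386 genes log2 length and log2 difference had a Pearson's r of 0.355 and a Spearman's rho of 0.442, where all points share the 4 libraries and FPKM is itself divided by length. Length therefore moved with the difference in the whole table, and its part in the values of the members was not tested.

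**Figure D5:**
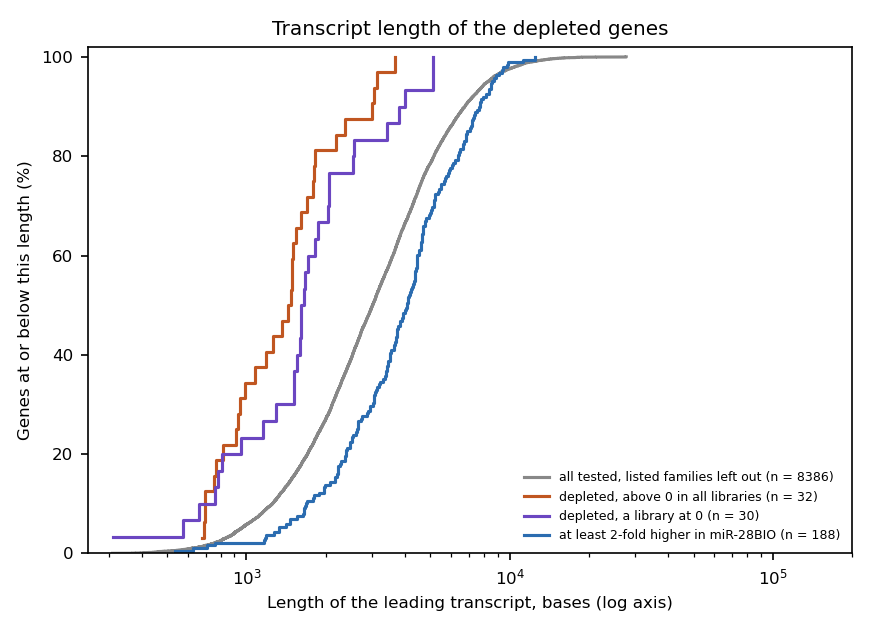
Cumulative share of genes (%) at or below a given length of the leading transcript (bases, log axis) for the 32 depleted genes above 0 in all libraries, the 30 with a library at 0, the 188 genes at least 2-fold higher in the tagged arm and all 8386 measured genes outside the families. The curves of the depleted genes lie to the left, with medians of 1454.5 and 1637 bases against 3016.5 for all genes and 4077 for the higher ones.

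The parts of the transcript differed in the same way. All 62 genes had a canonical transcript in GENCODE 44 on hg38. The 32 genes had a median 3′UTR of 503.5 bases, against 1365 in all measured genes and 2382.5 in the 188 higher genes, and a median coding sequence of 606 bases against 1416 and 1449. Some 3′UTRs were very short, at 81 bases in PPP1R14A, 93 in SNRPD2 and 108 in DYNLT2B, and the longest was that of C15orf40 with 10780. Median exon number was 6 against 10, and median GC content of the transcript was 46.4% against 47.5%.

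Sites for the seed were then counted in the 3′UTRs. The 7 letters AGCTCCT, read on the messenger strand, pair with miR-28-5p nucleotides 2 to 8. They occurred in the 3′UTR of 2 of the 32 genes (6.25%, exact binomial 95% interval 0.766 to 20.8), and of 7 of the 62 genes (11.3%, 4.66 to 21.9). Of all measured genes outside the families 15.6% held the site, and of the 188 higher genes 33.0% (62 genes). Per kilobase of 3′UTR the numbers were 0.0477 in the 32 genes, 0.0970 in the 62, 0.0938 in all measured genes and 0.149 in the 188. The interval of the share in the 62 genes includes that of all measured genes, and per kilobase the 62 genes were near all genes. Within coding sequences 6 of the 32 genes (18.8%) held the 7 letters, against 20.1% of all measured genes.

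The sites of 5 depleted genes are shown, namely 4 of the 7 genes with a match in the 3′UTR and NUP54, which with HOXA10 held a coding match followed by A. Capitals mark the 7 letters, and each window of 30 bases was read 5′ to 3′ on the transcript strand of hg38. The MAD2L1 site lies in the 3′UTR in exon 5 of 5 on the minus strand (chr4:120059637-120059666), and the MTHFD2 site in the 3′UTR in exon 8 of 8 on the plus strand (chr2:74216007-74216036). The 3′UTR sites of SCNM1 (exon 7 of 7, plus strand, chr1:151170122-151170151) and TXNL4B (exon 4 of 4, minus strand, chr16:72084916-72084945) belong to genes listed at 0 in the tagged arm. The NUP54 site lies in the coding sequence in exon 4 of 12 on the minus strand (chr4:76136371-76136400) and was the only match among the 32 genes followed by A.
MAD2L1: caatgaaatattgctgtatAGCTCCTtttg
MTHFD2: ctttcatgcgagcagaagtAGCTCCTgctc
SCNM1: aaacataagtgtttgttccAGCTCCTgctt
TXNL4B: ccaatctctgatgttattgAGCTCCTgcat
NUP54: tcttcagtcagcctacacaAGCTCCTaccc

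Of these, the MTHFD2 site lies past the end of the record in the files, which stops at position 74215297 of chromosome 2, outside the stretch its FPKM was estimated on. The MAD2L1 site lies inside its record, which begins at 120059424 of chromosome 4. A match is a stretch of letters and not a measured site of pairing. A 3′UTR match followed by A occurred in 0 of the 62 genes and in 2.54% of all measured genes.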

How the data were processed

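RNA recovered in the miRNA pull out from DU-145 cells was measured in 2 miR-28CT and 2 miR-28BIO libraries, grouped by the sample labels. Per the labels and the submitters' processing notes, reads were checked with FastQC 0.10.1, trimmed with cutadapt, aligned to hg38 with TopHat2 2.0.9 and quantified with Cufflinks 2.1.1. The authors deposited FPKM for 53209 RefSeq transcripts per library, with an interval, a status and a coverage. The deposited coverage signal was used only to estimate depth, as coverage times length over 50-base reads. Cuffdiff, which the authors ran on reads, cannot be repeated from FPKM. Single counts could not be recovered, since 9.01% to 10.5% of low values lay within 0.05 of a whole read, so counting error is unknown.

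FPKM of 41669 coding transcripts with status OK in all files were summed per gene (18733 genes; 835 transcripts had no name in RefSeq and were not used), including records on alternate contigs, and divided by factors of 1.06, 0.842, 1.05 and 1.08 from the 11372 genes above 0 everywhere. Differences are on log2(scaled FPKM + 0.1), which understates the change of low genes. For all 9273 genes with a mean of at least 1, limma 3.58.1 (R 4.3.3) was fitted with a trend. The study's methods used Cuffdiff on reads. Sequences came from hg38 and the canonical GENCODE 44 transcripts, and 99.0% of coding records overlapped the RefSeq gene of the same symbol.

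The members and the gene lists were chosen with earlier results of these data known. Named genes were the 12 members highest in the control, the 10 with the widest separation of (lower control + 0.1) to (higher tagged + 0.1), the 4 nearest the margin on each side, and up to 3 members of each list. A second set of lists of partner genes was drawn up after the members were known. Alternatives were other scalings, pseudocounts, filters, margins, records, intervals, seed sites, the replicate block and leaving out each library. Tables were made with pandas 2.3.3, numpy 2.4.6 and scipy 1.17.1 in Python 3.11.15, and figures with matplotlib 3.10.9. The values of 1 member with a library at 0 and of 1 marker are not reported here. Intervals of shares are exact binomial and cover counting error only.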

Additional observations from a re-analysis of the deposited data

Results flagged for a closer look

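The noncoding records of NUP54, which the sums over coding records do not use, were above 0 in both tagged libraries and listed at 0 in both control libraries, so no fold is given. They summed to 4.65 and 1.13 scaled FPKM in miR-28BIO replicates 1 and 2. With them added to the coding records NUP54 differed by -0.25 in place of -1.20, tagged replicate 1 (7.35) lay above both control values (6.75 and 6.03) and the gene no longer met the margin. The noncoding records of PHPT1 were likewise listed at 0 in the control libraries, with 0.354 and 1.33 in miR-28BIO replicates 1 and 2, and PHPT1 kept the margin with them added. The cause was not tested.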

How the results depend on the processing

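The number of depleted genes depended on where the margin and the filter were set. It was 96 with a mean of at least 0.5, 29 with a mean of at least 5 and 539 with no filter. It was 1097 (13.1%) with any gap between the arms, 29 with a 3-fold margin, 443 with Cufflinks intervals apart (43 of the 62 among them) and 128 with coding and noncoding records summed (45 of the 62). Only 25 of the 62 had a noncoding record to add. Among alternatives chosen after seeing the data, it was 32 with genes above 0 in all 4 libraries, 61 on primary chromosomes and 52 with both controls above 0. A 2-fold margin within each replicate number, also chosen then, gave 271, and the 52 of the 62 among them are fixed by the rule. Leaving out each library gave 161 to 716, the highest without miR-28CT replicate 1, the lowest without miR-28CT replicate 2, 235 without miR-28BIO replicate 1 and 583 without miR-28BIO replicate 2. FPKM as deposited gave 44, with 16 of the 32 genes above 0 everywhere among them, and upper quartile scaling gave 50, with 21 of the 32. The 3-fold margin held for 2 of the 32. More genes were lower than higher with any gap (991 higher), with intervals apart (413) and without miR-28CT replicate 1 (491) or miR-28BIO replicate 2 (331), against 188 higher and 62 lower as reported.

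The median log2 difference over the 62 genes was -1.62 with a pseudocount of 1, -1.48 with noncoding records summed, -1.53 within replicate 1 and -2.44 to -1.45 without 1 library. Over the 32 genes it was -1.18 with a pseudocount of 1, -1.27 for FPKM as deposited, -1.29 within replicate 1 and -1.56 to -1.26 without 1 library. With noncoding records summed DNAAF5 became 0.085 and HOXA10 0.012, the 2 of 352 alternatives of the 32 genes named by rule that turned positive, and RETREG3, outside them, became 0.21 at the scaling of the coding sums. Under most of the others the rule that chose the members fixes the sign. The share of the 62 genes with a seed site was 0% for a 3′UTR match followed by A (2.54% of all measured genes outside the families), 21.0% for a 3′UTR match to nucleotides 2 to 7 (35.6%) and 25.8% over the whole transcript (33.5%).

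The study describes biological replicates, and neither it nor the labels say that a number marks a shared day or culture. Deviations of same-numbered libraries from their arm means correlated across genes (Pearson's r 0.781, Spearman's rho 0.867). With the replicate block limma called 369 of 9273 genes lower and 339 higher (smallest adjusted p 0.0242) against 0 of each without it. Without the block it called 3 lower with noncoding records summed, the small nucleolar RNA genes SNORD12C, SNORD57 and SNORD58A and no member. It called 0 to 3 lower without 1 library, namely PTRHD1, RNASEK and S100A13 without miR-28BIO replicate 1, PTRHD1, ATP5MG and S100A13 without replicate 2, and 0 without either control library. A leave-out leaves 1 arm with a single library, which is then assumed to vary like the others.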
